A study of Mus musculus with 6 samples.

Results

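Severe chronic hypoxia was examined in primary mouse myoblasts, cultured muscle precursor cells, as the difference between 1% and 20% pO2. The comparison uses 4 of the 6 RNA-seq libraries of the series, 2 from cultures at 1% pO2 and 2 from cultures at 20% pO2 (normoxia). At each pO2, 1 library came from cells given PT2385 and 1 from cells given vehicle. All cultures were mouse cells of the Pax7-ZSGreen genotype, a reporter of the muscle stem cell gene *Pax7*, and had spent more than 2 weeks at their pO2. PT2385, a small-molecule inhibitor that stops HIF-2α and ARNT from joining, was used at 1 μM for 48 h, and vehicle was 0.1% DMSO. The 2 libraries at 4% pO2 are set beside the others only where they show how a gene behaved between the extremes.

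The hypoxia-inducible factors are transcription factors made of an oxygen-regulated α subunit and the stable subunit ARNT. In oxygen-rich cells, prolyl hydroxylases of the EGLN family mark the α subunit for destruction through the VHL ubiquitin ligase, and in hypoxia the α subunit escapes, enters the nucleus and binds short DNA motifs near genes of glycolysis, lactate export, angiogenesis and mitochondrial turnover. Myoblasts in culture carry the myogenic factors MyoD and Pax7 and divide until growth factors are withdrawn, when they fuse into contractile myotubes.

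Each library was 1 pool of RNA from 9 cultures that stood for 3 temporal replicates, by the supplementary methods, so the deposited table holds 1 value per gene and condition and no spread between cultures. The unit was read as FPKM, in which fragment numbers are divided by transcript length in kb and by the size of the library. Differences are log2(FPKM + 1) at 1% minus 20% pO2, computed once between the PT2385 libraries (the PT2385 pair) and once between the vehicle libraries (the vehicle pair). These pairs share no library, but whether both treatments at a pO2 used the same adapted cells is not stated. Agreement between the pairs may therefore repeat the same adaptation. A gene was counted as higher or lower only where both differences reached 1, that is 2-fold on this scale, in the same direction. The added 1 makes the differences of weakly expressed genes smaller than their fold change. From the step between low values, the 4 libraries held an estimated 22470000 to 22860000 fragments each, at which 1 fragment per kb corresponds to about 0.044 FPKM. The 1% library with PT2385 stood apart in adipocyte markers, with a sum of 43.6 FPKM beside 11.2 to 13.3 FPKM in the other 3. The rule above requires every called gene to pass 2-fold also in the vehicle pair, which does not use that library. Differences and medians of the PT2385 pair do use it, as do counts in both pairs. With 1 library per condition, no p-value is given for any gene. In such bulk RNA, fewer cells of a type and less RNA per cell cannot be told apart.

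Of 54834 genes in the table, 11967 had a mean of at least 1 FPKM over the 6 libraries. Of these, 630 were higher (5.26% of genes tested) and 156 lower (1.3%) at 1% pO2 in both pairs. Among the higher genes 577 were protein-coding, 162 were at least 4-fold higher in both pairs, and 15 at least 16-fold. Among the lower genes 135 were protein-coding, 23 were at least 4-fold lower, and 0 were 16-fold lower. The PT2385 pair alone had 783 higher (6.54%) and 246 lower genes (2.06%), and the vehicle pair alone 789 higher (6.59%) and 235 lower (1.96%). Only 17 genes passed 2-fold in opposite directions, 4 of them protein-coding. PT2385 against vehicle at the same pO2 gave far fewer differences, with 96 genes past 2-fold in either direction at 1% pO2 (0.802%) and 97 at 20% pO2 (0.811%).

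The higher genes gained more of the RNA than the lower genes gave up. The 630 genes held 7.7% of the summed FPKM with PT2385 and 7.53% with vehicle at 1% pO2, against 2.39% with PT2385 and 2.26% with vehicle at 20% pO2. Their median level was 11.3 FPKM (PT2385) and 11 FPKM (vehicle) at 1% pO2, against 2.56 FPKM (PT2385) and 2.38 FPKM (vehicle) at 20% pO2. Of the 630, 174 lay under 1 FPKM in both normoxic libraries. The 156 lower genes held 1.8% with PT2385 and 1.76% with vehicle at 1% pO2, against 4.21% with PT2385 and 4.59% with vehicle at 20% pO2, and 23 of them lay under 1 FPKM in both hypoxic libraries.

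**Figure D1:**
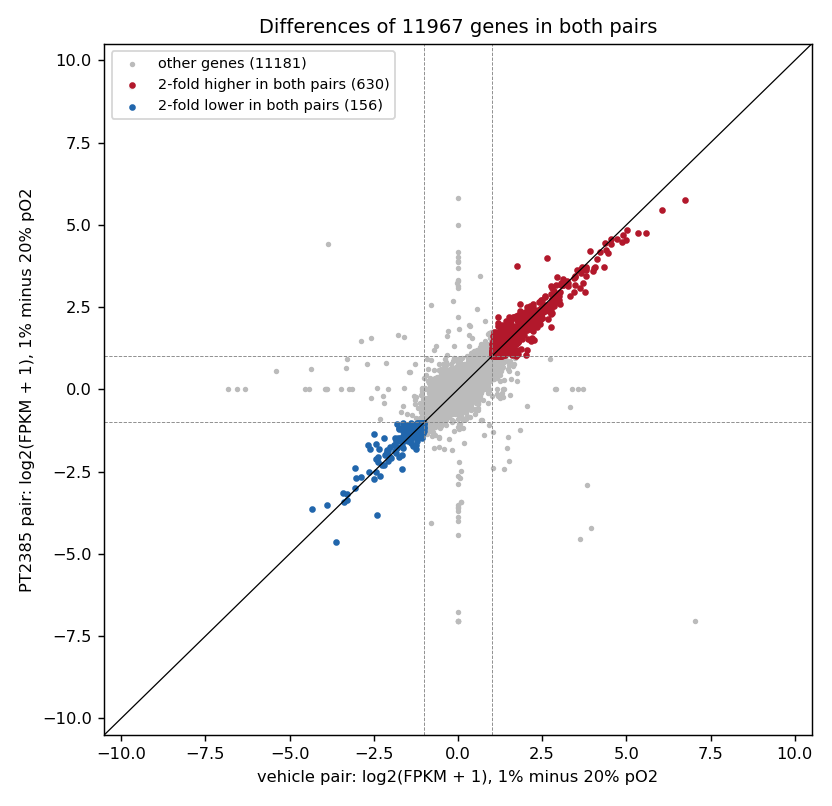
Differences of log2(FPKM + 1) between 1% and 20% pO2 for the 11967 genes, with the vehicle pair on the x axis and the PT2385 pair on the y axis. Red points are the 630 genes higher and blue points the 156 genes lower in both pairs, dashed lines mark 2-fold and the solid line marks equal differences. Most called genes lie near the solid line, and grey points along the axes include genes listed at 0 in 1 library.

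The difference in one pair missed that in the other by a median of 0.11 over all genes. Across the 11967 genes, which are not independent replicates, Pearson's r between the pairs was 0.746 (Spearman's rho 0.835). In 73 genes a library was listed at exactly 0 while its partner at the same pO2 held 5 FPKM or more. Without them r was 0.903 (rho 0.846), and no called gene was among them. As a whole, 42.5% of genes were higher by any amount in both pairs and 40.9% lower, and the median difference was 0.00 in the PT2385 pair and 0.01 in the vehicle pair. Counts of list members given later are to be read beside these shares and, for 2-fold, beside 5.26% higher and 1.3% lower. The lists and their members were chosen with earlier results of these data known. A share above that of all genes is therefore a description and no test.

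Among protein-coding genes averaging at least 5 FPKM, the 15 highest by the smaller of their 2 differences were led by *Slc16a3*, which encodes the lactate exporter MCT4. *Slc16a3* had 297 FPKM with PT2385 and 288 FPKM with vehicle at 1% pO2, against 4.50 FPKM with PT2385 and 1.72 FPKM with vehicle at 20% pO2. The difference was 5.76 in the PT2385 pair and 6.73 in the vehicle pair. *Adm*, for the vasodilator peptide adrenomedullin, had 107 FPKM (PT2385) and 109.7 FPKM (vehicle) at 1% pO2, against 1.47 FPKM (PT2385) and 0.648 FPKM (vehicle) at 20% pO2. *Car9*, for a carbonic anhydrase of the cell surface that handles exported acid, had 67.5 FPKM (PT2385) and 76.3 FPKM (vehicle) at 1% pO2, against 1.54 (PT2385) and 0.606 (vehicle) FPKM at 20% pO2. For *Slc16a3*, *Adm* and *Car9*, both hypoxic libraries lay far above both normoxic ones, which follows largely from the ranking. The 2 hypoxic libraries were close to each other.

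*Pdk1*, a kinase that switches off pyruvate dehydrogenase, lay at 74.3 FPKM (PT2385) and 75.5 FPKM (vehicle) at 1% pO2, against 1.92 (PT2385) and 1.54 (vehicle) FPKM at 20% pO2. *Bnip3*, a receptor that hands mitochondria to autophagy, was at 415 FPKM in both hypoxic libraries, against 16.5 FPKM (PT2385) and 14.8 FPKM (vehicle) at 20% pO2. *Bhlhe40*, the transcriptional repressor DEC1, had 63.7 FPKM (PT2385) and 65.5 FPKM (vehicle) at 1% pO2, against 1.42 (PT2385) and 0.637 (vehicle) FPKM at 20% pO2. The metallothionein gene *Mt2*, whose product binds zinc and copper, had 288 FPKM (PT2385) and 219.7 FPKM (vehicle) at 1% pO2, against 9.14 (PT2385) and 5.86 (vehicle) FPKM at 20% pO2. Metallothionein genes are close copies of each other, so reads may have been split between *Mt2* and *Mt1*, and *Mt1* moved the same way, by 3.72 (PT2385) and 4.08 (vehicle).

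The other 8 were of mixed kind. The IGF-binding proteins *Igfbp2* and *Igfbp5*, which hold insulin-like growth factors outside the cell, differed by 4.53 and 4.43 in the PT2385 pair and by 4.98 and 4.55 in the vehicle pair. *Tubb3*, a tubulin best known from neurons, differed by 4.49 (PT2385) and 4.86 (vehicle), and *Krt19*, an epithelial keratin, by 4.57 (PT2385) and 4.53 (vehicle). *Mgarp*, a mitochondrial transport protein, and *Ndrg1*, a stress-response gene, differed by 4.23 and 4.16 in the PT2385 pair and by 4.40 and 4.45 in the vehicle pair. *Prl2c3*, a proliferin of the prolactin family with near-identical copies, and the membrane protein gene *Tmem45a* completed the list, with 4.46 and 4.19 in the PT2385 pair and 4.36 and 4.21 in the vehicle pair.

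For the most strongly raised genes, the promoters are shown with the core letters that hypoxia-inducible factors bind, since these genes moved together. Windows are from RefSeq on GRCm38.p6 and run 5′ to 3′ on the gene's strand from 250 bases before to 50 after the annotated start. Capitals mark ACGTG or GCGTG on either strand (CACGT and CACGC when read on the strand shown), and neighbouring matches may overlap in the palindrome CACGTG, which is also a site of other helix-loop-helix factors. Of the 15 highest genes, 12 had a window in the table, and the first 6 are printed, followed by the window of *Gas6*, the lowest gene by the same ranking.
*Slc16a3* promoter, chr11:120948817-120949116, plus strand: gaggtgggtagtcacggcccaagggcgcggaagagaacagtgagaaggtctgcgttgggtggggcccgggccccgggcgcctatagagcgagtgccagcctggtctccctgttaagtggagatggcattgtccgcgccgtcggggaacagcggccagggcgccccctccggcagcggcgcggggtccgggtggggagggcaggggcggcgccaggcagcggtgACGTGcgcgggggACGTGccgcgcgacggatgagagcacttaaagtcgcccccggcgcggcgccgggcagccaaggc
*Adm* promoter, chr7:110627407-110627706, plus strand: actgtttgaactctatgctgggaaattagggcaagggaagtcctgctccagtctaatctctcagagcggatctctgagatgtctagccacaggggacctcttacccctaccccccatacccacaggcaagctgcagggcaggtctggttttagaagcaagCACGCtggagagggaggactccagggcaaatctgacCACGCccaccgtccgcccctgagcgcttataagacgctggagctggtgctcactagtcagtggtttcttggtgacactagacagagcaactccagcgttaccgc
*Mt2* promoter, chr8:94172368-94172667, plus strand: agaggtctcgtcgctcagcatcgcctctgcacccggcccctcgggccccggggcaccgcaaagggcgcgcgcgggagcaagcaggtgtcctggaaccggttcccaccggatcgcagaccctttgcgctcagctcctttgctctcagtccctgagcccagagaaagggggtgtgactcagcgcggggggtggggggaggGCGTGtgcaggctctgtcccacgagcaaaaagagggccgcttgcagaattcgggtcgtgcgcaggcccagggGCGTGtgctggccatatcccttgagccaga
*Car9* promoter, chr4:43506776-43507075, plus strand: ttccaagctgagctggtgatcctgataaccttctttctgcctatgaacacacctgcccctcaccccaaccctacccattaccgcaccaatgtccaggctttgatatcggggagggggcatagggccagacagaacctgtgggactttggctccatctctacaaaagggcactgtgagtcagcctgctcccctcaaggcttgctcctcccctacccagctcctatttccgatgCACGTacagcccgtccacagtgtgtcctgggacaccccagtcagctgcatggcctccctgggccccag
*Pdk1* promoter, chr2:71872974-71873273, plus strand: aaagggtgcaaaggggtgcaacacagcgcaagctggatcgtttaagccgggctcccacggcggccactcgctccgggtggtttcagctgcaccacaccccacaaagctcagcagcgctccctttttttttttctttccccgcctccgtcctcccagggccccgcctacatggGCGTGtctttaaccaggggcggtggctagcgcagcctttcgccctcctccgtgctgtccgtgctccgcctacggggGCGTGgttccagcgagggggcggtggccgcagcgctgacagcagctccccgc
*Bnip3* promoter, chr7:138909457-138909756, minus strand: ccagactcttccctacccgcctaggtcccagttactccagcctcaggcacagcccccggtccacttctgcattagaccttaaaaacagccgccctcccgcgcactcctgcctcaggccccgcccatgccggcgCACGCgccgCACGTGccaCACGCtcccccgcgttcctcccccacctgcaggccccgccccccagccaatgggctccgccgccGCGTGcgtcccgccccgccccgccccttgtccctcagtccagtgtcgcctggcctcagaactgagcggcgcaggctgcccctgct
*Gas6* promoter, chr8:13494486-13494785, minus strand: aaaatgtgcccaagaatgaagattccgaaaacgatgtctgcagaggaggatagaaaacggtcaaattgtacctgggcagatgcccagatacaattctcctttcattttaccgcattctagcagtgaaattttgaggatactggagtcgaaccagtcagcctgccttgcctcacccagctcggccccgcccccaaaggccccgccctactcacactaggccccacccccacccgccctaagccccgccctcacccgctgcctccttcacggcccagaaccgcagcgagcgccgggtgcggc
Of the 12 highest genes with a window, 11 held at least 1 match in the window nearest their annotated 5′ end, and of the 13 lowest genes with a window 5 did, although *Gas6* did not. The share in the nearest window was not computed over all genes kept, so these counts have no background of the same kind. The letters are common, however. Counted per gene, 69.3% of the higher genes with a window and 66.3% of the lower ones held a match in any of their windows, against 70% of all genes kept. Of the 640 windows matched to genes higher in both pairs, 60.3% held a match, against 51.8% of the 139 windows of genes lower in both pairs and 63.7% of the 11340 windows of all genes kept. Over all 32851 windows of the table the share was 43.8%. A match is a description of these 300 bases and not a binding site.

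**Figure D2:**
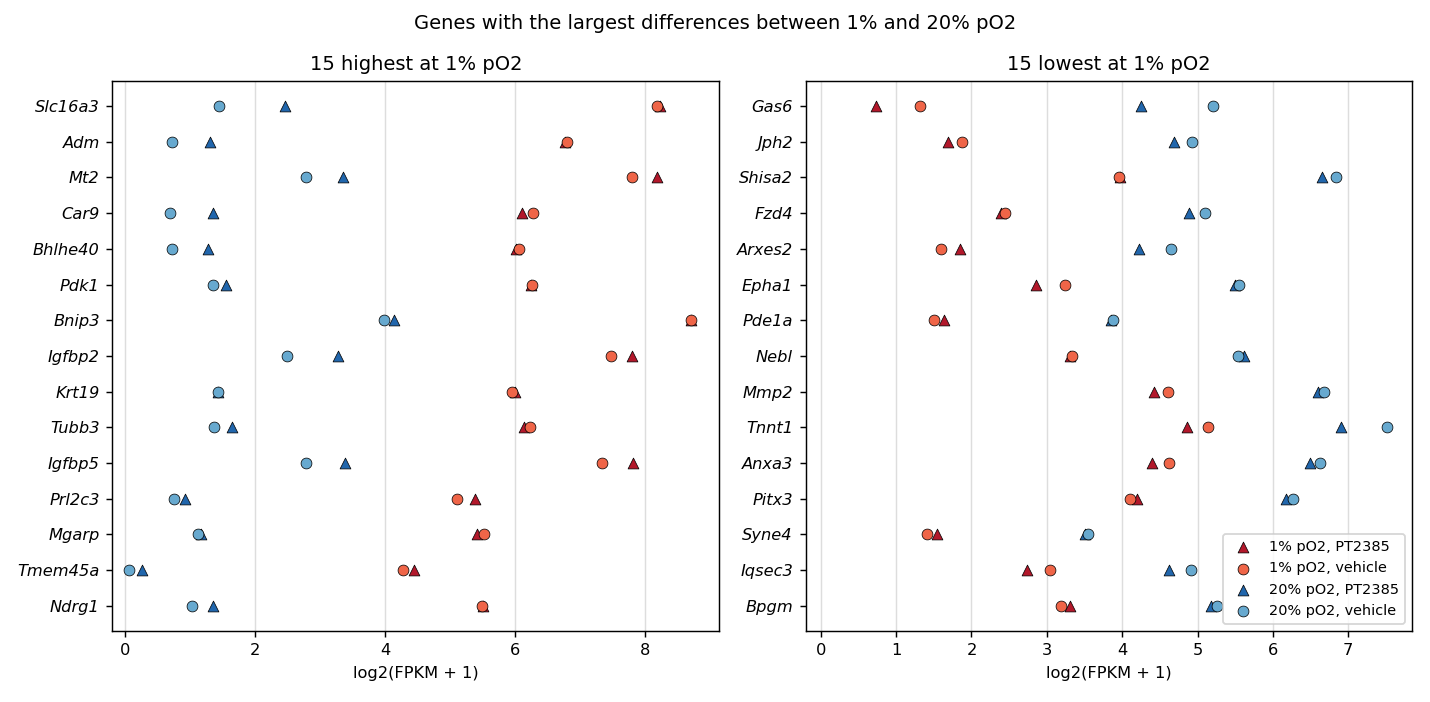
Levels of the 15 highest genes (left) and the 15 lowest genes (right) in each library, as log2(FPKM + 1) on the x axis, with red symbols for 1% pO2 and blue symbols for 20% pO2, triangles for PT2385 and circles for vehicle. The genes were ranked by these differences, so the distance between red and blue symbols, which overlap in no gene, follows largely from that choice. In the highest genes the normoxic triangle lies at or to the right of the normoxic circle.

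Values with PT2385 and vehicle were also compared at the same pO2. Each of the 15 highest genes had a higher value with PT2385 than with vehicle at 20% pO2, whereas at 1% pO2 8 of the 15 were higher with PT2385 and 7, *Adm* and *Car9* among them, were lower. Among all 630 higher genes, 386 (61.3%) were above vehicle in the PT2385 library at 20% pO2, against 51.4% of all genes kept, and the median difference was 0.06. Among the 156 lower genes 41 (26.3%) were. At 1% pO2, 367 of the 630 higher genes (58.3%) were above vehicle in the PT2385 library, against 48.6% of all genes kept, and 56 of the 156 lower genes (35.9%) were. Fragment numbers behind the normoxic values of the 15 genes were estimated at the length of each gene's shortest transcript and rounded, and they ranged widely. They are low estimates where longer transcripts are expressed. *Igfbp5* had an estimated 1257 with PT2385 and 784 with vehicle at 20% pO2, and *Tmem45a* had 1 with PT2385. With vehicle, *Tmem45a* had 0.0346 FPKM at 20% pO2, an estimate that rounds to 0 fragments. For *Adm*, an estimated 41 fragments with PT2385 and 18 with vehicle stand behind the normoxic values, and the exact binomial 95% interval of the log2 ratio of 1% to 20% pO2, which covers counting error only, was 5.74 to 6.67 with PT2385 and 6.74 to 8.16 with vehicle. The part of counting error or treatment in the size of these differences was not tested.

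The oxygen sensors themselves were mixed. *Egln3*, an oxygen-dependent prolyl hydroxylase, had 294 FPKM (PT2385) and 299 FPKM (vehicle) at 1% pO2, against 51.4 (PT2385) and 51.9 (vehicle) FPKM at 20% pO2, and *Egln1*, its relative that sets normoxic HIF levels, had 105 (PT2385) and 104 (vehicle) FPKM at 1% pO2, against 21.8 (PT2385) and 21.4 (vehicle) FPKM at 20% pO2. *Cited2*, a competitor for the HIF coactivators CBP and p300, was higher by 1.11 (PT2385) and 1.21 (vehicle). The α subunit gene *Hif1a* had 42.2 (PT2385) and 41.3 (vehicle) FPKM at 1% pO2, against 43.8 (PT2385) and 47.1 (vehicle) FPKM at 20% pO2, and its partner *Arnt* had 13.7 (PT2385) and 14.9 (vehicle) FPKM at 1% pO2, against 15.9 (PT2385) and 16.6 (vehicle) FPKM at 20% pO2. *Epas1*, which encodes HIF-2α, the target of PT2385, had 0.117 (PT2385) and 0.0578 (vehicle) FPKM at 1% pO2, against 0.0491 (PT2385) and 0.273 (vehicle) FPKM at 20% pO2, below the level at which genes were kept. *Hif3a* was at or below 0.0354 FPKM. Of 9 genes kept in this group, 3 passed 2-fold, all higher.

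Glucose uptake and glycolysis had the highest median difference of 43 pathway lists. Of 23 genes kept, 20 were higher in both pairs, 14 of them by 2-fold, and the median difference was 1.27 in the PT2385 pair and 1.26 in the vehicle pair, beside 0.00 (PT2385) and 0.01 (vehicle) over all genes. *Slc2a1*, the glucose transporter GLUT1, had 374 FPKM (PT2385) and 352 FPKM (vehicle) at 1% pO2, against 33.1 (PT2385) and 24.5 (vehicle) FPKM at 20% pO2. The second transporter, *Slc2a3*, was far lower in level, at 8.65 (PT2385) and 8.47 (vehicle) FPKM at 1% pO2, against 0.594 (PT2385) and 0.304 (vehicle) FPKM at 20% pO2. *Pfkfb3*, which makes the activator of phosphofructokinase, had 47.1 (PT2385) and 49 (vehicle) FPKM at 1% pO2, against 2.90 (PT2385) and 2.60 (vehicle) FPKM at 20% pO2.

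Genes from the upper to the last step of glycolysis were among the 14. The phosphofructokinase genes *Pfkp* and *Pfkl* differed by 2.96 and 2.06 in the PT2385 pair and by 3.03 and 2.06 in the vehicle pair. *Pgk1*, which makes the first ATP of glycolysis, had 1200 FPKM (PT2385) and 1165 FPKM (vehicle) at 1% pO2, against 244 (PT2385) and 233 (vehicle) FPKM at 20% pO2. *Eno1* had 2663 (PT2385) and 2618 (vehicle) FPKM at 1% pO2, against 909 (PT2385) and 816 (vehicle) FPKM at 20% pO2, whereas the muscle enolase gene *Eno3* had 202 (PT2385) and 208 (vehicle) FPKM at 1% pO2, against 262 (PT2385) and 259 (vehicle) FPKM at 20% pO2 and did not pass 2-fold. The last step, pyruvate kinase (*Pkm*), was just past 2-fold, by 1.07 (PT2385) and 1.10 (vehicle). Several of these genes have processed pseudogenes, which could share their reads.

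Beyond pyruvate the list split. *Ldha*, the lactate dehydrogenase subunit that favours lactate, had 3015 FPKM (PT2385) and 2792 FPKM (vehicle) at 1% pO2, against 822 (PT2385) and 758 (vehicle) FPKM at 20% pO2. *Pdp1*, the phosphatase that reactivates pyruvate dehydrogenase, was higher as well, by 1.07 (PT2385) and 1.01 (vehicle). Of 23 genes kept for pyruvate, lactate and acid handling, 11 were higher and 11 lower in both pairs, and all 5 that passed 2-fold were higher. The lactate transporter gene *Slc16a1* differed by -0.35 (PT2385) and -0.28 (vehicle), and the kinase gene *Pdk4* by -0.31 (PT2385) and -0.32 (vehicle).

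Glycogen genes showed the same split, with 5 of 17 past 2-fold, all higher. *Pgm1*, which joins glucose to the glycogen path, had 129 FPKM (PT2385) and 132 FPKM (vehicle) at 1% pO2, against 11.6 (PT2385) and 11.1 (vehicle) FPKM at 20% pO2. *Gys1*, glycogen synthase of muscle, differed by 2.04 (PT2385) and 2.15 (vehicle), and *Ppp1r3b*, a subunit that directs a phosphatase to glycogen, by 2.54 (PT2385) and 2.85 (vehicle). The muscle phosphorylase gene *Pygm* differed by -0.57 (PT2385) and -0.75 (vehicle).

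Mitochondrial genes were lower by small amounts, and those encoded in the mitochondrion by larger ones. All 13 mitochondrially encoded protein genes were lower in both pairs, with a median of -0.96 (PT2385) and -0.91 (vehicle), and 4 passed 2-fold. *mt-Cytb* had 2374 FPKM (PT2385) and 2225 FPKM (vehicle) at 1% pO2, against 5353 (PT2385) and 5440 (vehicle) FPKM at 20% pO2. *mt-Nd1* had 2948 (PT2385) and 2697 (vehicle) FPKM at 1% pO2, against 6369 (PT2385) and 6285 (vehicle) FPKM at 20% pO2. *mt-Co1* was the closest to its normoxic level of those named, with 5046 (PT2385) and 4999 (vehicle) FPKM at 1% pO2, against 7094 (PT2385) and 7093 (vehicle) FPKM at 20% pO2. Together, mitochondrially encoded genes made up 2.92% (PT2385) and 2.88% (vehicle) of the summed FPKM at 1% pO2, against 4.98% (PT2385) and 5.22% (vehicle) at 20% pO2. Their genes overlap or abut, so *mt-Nd4l*, the fourth past 2-fold beside *mt-Nd2*, is uncertain.

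Nuclear genes of the respiratory chain differed by less than 2-fold with few exceptions. Both pairs were lower in 28 of 36 complex I genes, 13 of 14 genes of complexes II and III, 8 of 13 of complex IV and 17 of 18 of the ATP synthase, with medians between -0.35 and -0.06. *Uqcrfs1*, the iron-sulphur subunit of complex III, had the largest difference of its list, with 64.1 FPKM (PT2385) and 59.6 FPKM (vehicle) at 1% pO2, against 108 (PT2385) and 102 (vehicle) FPKM at 20% pO2. *Ndufv3* of complex I went the other way, with 130.4 (PT2385) and 127 (vehicle) FPKM at 1% pO2, against 57.9 (PT2385) and 55.5 (vehicle) FPKM at 20% pO2, and so did *Cox7a1*, the muscle form of a complex IV subunit, with 7.06 (PT2385) and 11.3 (vehicle) FPKM at 1% pO2, against 1.18 (PT2385) and 0.801 (vehicle) FPKM at 20% pO2. *Cox4i2* and *Ndufa4l2*, the hypoxic forms known from other cells, were too low to be kept. *Cox4i2* was at or below 0.24 FPKM in every library. *Ndufa4l2* was listed at 0 at 20% and 4% pO2 and had 1.10 (PT2385) and 0.407 (vehicle) FPKM at 1% pO2. Of 16 tricarboxylic acid cycle genes 14 were lower in both pairs and 0 by 2-fold. *Pck2*, counted with this group and known to make phosphoenolpyruvate in the mitochondrion, had 43.8 (PT2385) and 51.6 (vehicle) FPKM at 1% pO2, against 22 (PT2385) and 21 (vehicle) FPKM at 20% pO2. Mitochondrial ribosomal proteins were lower in both pairs in 66 of 78, again 0 by 2-fold.

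Mitophagy and autophagy genes were higher in both pairs in 23 of 26, and 3 passed 2-fold. Beside *Bnip3*, its relative *Bnip3l*, also a mitophagy receptor, had 167 FPKM (PT2385) and 166 FPKM (vehicle) at 1% pO2, against 44.5 (PT2385) and 39.3 (vehicle) FPKM at 20% pO2. *Optn*, an autophagy adaptor, differed by 1.35 (PT2385) and 1.38 (vehicle).

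**Figure D3:**
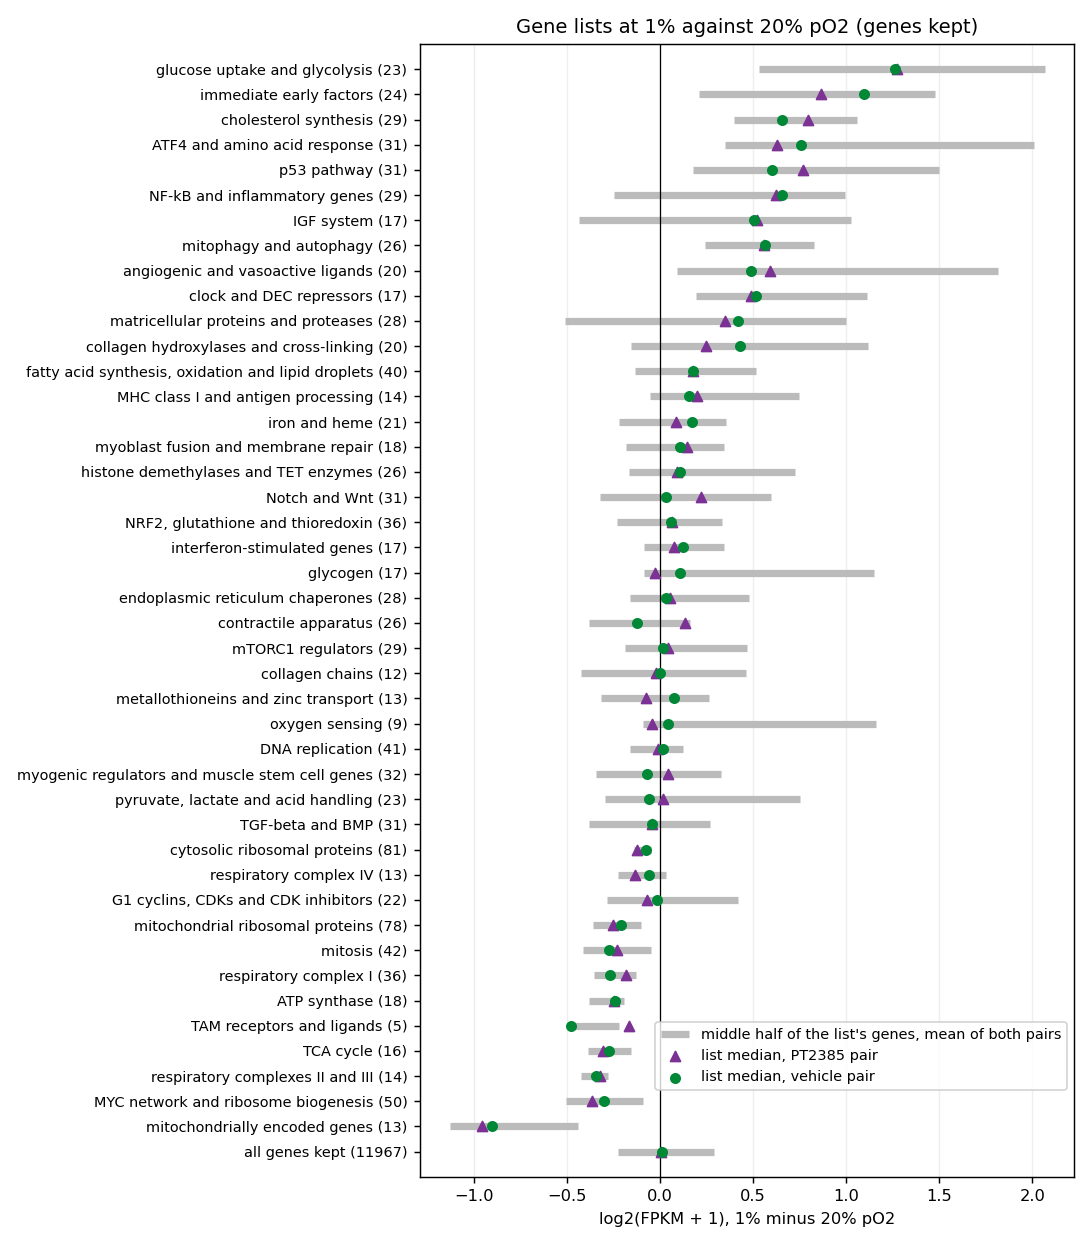
Median difference of log2(FPKM + 1) between 1% and 20% pO2 for 43 pathway lists, sorted from highest to lowest, with the number of genes kept in brackets. Triangles are the PT2385 pair, circles the vehicle pair and grey bars the range between the lower and upper quartile of the list's genes. The lists were chosen with earlier results of these data known, so their order is a description. Glycolysis lies at the top (1.27 in the PT2385 pair and 1.26 in the vehicle pair), mitochondrially encoded genes lie lowest (-0.96 and -0.91 in the same pairs), and all genes kept, on the last line, lie at 0.

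Secreted factors of vessels were higher in part. Of 20 angiogenic and vasoactive ligand genes kept, 9 were past 2-fold and all 9 were higher. *Vegfa*, the main growth factor of vessels, had 337 FPKM (PT2385) and 353 FPKM (vehicle) at 1% pO2, against 109.5 (PT2385) and 96.1 (vehicle) FPKM at 20% pO2. *Apln*, a peptide of vessel growth, had 34.7 (PT2385) and 36.9 (vehicle) FPKM at 1% pO2, against 3.48 (PT2385) and 4.28 (vehicle) FPKM at 20% pO2, and *Stc1*, a stanniocalcin, 19.9 (PT2385) and 19 (vehicle) FPKM at 1% pO2, against 0.739 (PT2385) and 0.25 (vehicle) FPKM at 20% pO2. *Angptl4*, an inhibitor of lipoprotein lipase, differed by 1.94 (PT2385) and 2.28 (vehicle).

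Enzymes that finish collagen were higher in part. *P4ha1* and *P4ha2*, the prolyl hydroxylase subunits that stabilise the triple helix, differed by 2.52 and 3.44 in the PT2385 pair and by 2.61 and 3.47 in the vehicle pair. *Lox*, which cross-links collagen and elastin, had 58.4 FPKM (PT2385) and 49.3 FPKM (vehicle) at 1% pO2, against 3.78 (PT2385) and 3.34 (vehicle) FPKM at 20% pO2. In this list 5 of 20 genes passed 2-fold upwards and 1 downwards, *Pcolce*, which speeds up the trimming of procollagen, by -1.30 (PT2385) and -1.20 (vehicle). Of 12 collagen chains kept, *Col18a1* and *Col7a1* were higher by 2-fold and *Col8a1* was lower, while *Col3a1* had 139 FPKM in both hypoxic libraries, against 123 (PT2385) and 125 (vehicle) FPKM at 20% pO2. *Col1a1* lay below 0.25 FPKM in all 4 libraries.

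Among matricellular proteins and proteases 6 of 28 were higher by 2-fold and 2 lower. *Tnc*, for the matrix protein tenascin-C, had 213 (PT2385) and 224 (vehicle) FPKM at 1% pO2, against 38.6 (PT2385) and 32.3 (vehicle) FPKM at 20% pO2. *Fn1*, for fibronectin, had 448 (PT2385) and 418 (vehicle) FPKM at 1% pO2, against 124 (PT2385) and 102 (vehicle) FPKM at 20% pO2. The gelatinase genes parted. *Mmp9* had 22.6 FPKM (PT2385) and 25.1 FPKM (vehicle) at 1% pO2, against 3.85 (PT2385) and 5.86 (vehicle) FPKM at 20% pO2, whereas *Mmp2* had 20.4 (PT2385) and 23.4 (vehicle) FPKM at 1% pO2, against 95.9 (PT2385) and 101 (vehicle) FPKM at 20% pO2.

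The 15 lowest genes by the same ranking were led by *Gas6*, the vitamin K-dependent ligand of TAM receptors, at 0.657 FPKM (PT2385) and 1.49 FPKM (vehicle) at 1% pO2, against 18.1 (PT2385) and 35.9 (vehicle) FPKM at 20% pO2. *Jph2*, which ties the sarcoplasmic reticulum to the surface membrane of muscle, had 2.23 (PT2385) and 2.67 (vehicle) FPKM at 1% pO2, against 24.8 (PT2385) and 29.3 (vehicle) FPKM at 20% pO2. *Shisa2*, an inhibitor of Wnt and FGF receptor maturation, had 14.7 (PT2385) and 14.6 (vehicle) FPKM at 1% pO2, against 99.2 (PT2385) and 113 (vehicle) FPKM at 20% pO2. The Wnt receptor gene *Fzd4* had 4.24 (PT2385) and 4.46 (vehicle) FPKM at 1% pO2, against 28.6 (PT2385) and 33.4 (vehicle) FPKM at 20% pO2. In each of these genes both hypoxic libraries lay below both normoxic ones, which follows largely from the ranking.

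The other 11 lowest genes were of mixed kind. *Tnnt1*, the troponin T of slow fibres, had 28.0 FPKM (PT2385) and 34.3 FPKM (vehicle) at 1% pO2, against 119 (PT2385) and 182 (vehicle) FPKM at 20% pO2. *Nebl*, a relative of the thin-filament ruler nebulin, had 8.88 (PT2385) and 9.10 (vehicle) FPKM at 1% pO2, against 48.1 (PT2385) and 45.2 (vehicle) FPKM at 20% pO2, and *Pitx3*, a homeobox factor of the muscle lineage, had 17.4 (PT2385) and 16.2 (vehicle) FPKM at 1% pO2, against 71.4 (PT2385) and 76.0 (vehicle) FPKM at 20% pO2. *Epha1*, an ephrin receptor, differed by -2.65 (PT2385) and -2.31 (vehicle), and *Anxa3*, an annexin, by -2.09 (PT2385) and -2.0 (vehicle). *Bpgm*, which makes 2,3-bisphosphoglycerate from a glycolytic intermediate, was the one enzyme next to glycolysis among the 15, by -1.86 (PT2385) and -2.07 (vehicle). The gelatinase gene *Mmp2*, given above, was also among the 15. The remaining genes were *Arxes2*, *Pde1a*, *Syne4* and *Iqsec3*, with differences from -2.38 to -1.89 in the PT2385 pair and from -3.06 to -1.87 in the vehicle pair. *Arxes2* has a near-identical copy and is uncertain.

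Myogenic genes were mixed. Of 32 regulators of myogenesis and muscle stem cells, 14 were higher and 14 lower in both pairs, with medians of 0.04 (PT2385) and -0.07 (vehicle). By 2-fold, 2 were higher (6.25%, beside 5.26% of all genes) and 2 lower (6.25%, beside 1.3%). The higher ones were the chemokine receptor *Cxcr4*, by 2.27 (PT2385) and 1.95 (vehicle), and the Notch effector *Hey1*, by 1.26 (PT2385) and 1.11 (vehicle), and the lower ones were *Vcam1* and *Fgfr4*. Of 9 myoblast markers kept, 8 were lower in both pairs and 2 of them past 2-fold. *Myod1* had 625 FPKM (PT2385) and 571 FPKM (vehicle) at 1% pO2, against 951 (PT2385) and 921 (vehicle) FPKM at 20% pO2, and *Pax7* had 16.5 (PT2385) and 18.6 (vehicle) FPKM at 1% pO2, against 33.0 (PT2385) and 36.3 (vehicle) FPKM at 20% pO2, and neither passed 2-fold. *Vcam1*, an adhesion molecule of muscle stem cells, had 15.8 (PT2385) and 16 (vehicle) FPKM at 1% pO2, against 56.0 (PT2385) and 59.1 (vehicle) FPKM at 20% pO2, and *Fgfr4*, an FGF receptor, 2.30 (PT2385) and 2.48 (vehicle) FPKM at 1% pO2, against 7.34 (PT2385) and 8.44 (vehicle) FPKM at 20% pO2. *Myf5* lay below 0.5 FPKM in all 4 libraries. It had an estimated 0 (PT2385) and 1 (vehicle) fragments at 1% pO2, against 21 (PT2385) and 19 (vehicle) at 20% pO2.

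*Myog*, the factor that starts differentiation, was among the 8 genes with the widest gap between the pairs. It had 11.2 FPKM (PT2385) and 9.43 FPKM (vehicle) at 1% pO2, against 8.56 (PT2385) and 17.4 (vehicle) FPKM at 20% pO2. The pairs thus differed in sign (0.35 with PT2385 and -0.82 with vehicle), and of these 4 libraries the normoxic vehicle library stood apart. At 4% pO2 *Myog* had 14.3 (PT2385) and 16.8 (vehicle) FPKM. The other 7 were *Scd1*, *Gga3*, *Il17rc*, *Pcdhgc4*, *Pemt*, *Zbtb20* and *Ift81*, of which 5 had pairs of opposite sign and *Il17rc* and *Pcdhgc4* had the same sign in both.

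Contractile genes gave no common direction. Of 26 kept, 10 were higher and 9 lower in both pairs. *Tnnt2*, the troponin T of heart and embryonic muscle, had 146 FPKM (PT2385) and 142 FPKM (vehicle) at 1% pO2, against 64.1 (PT2385) and 57.6 (vehicle) FPKM at 20% pO2, in contrast to *Tnnt1*. *Mstn*, the inhibitor of muscle growth, had 0.281 (PT2385) and 0.348 (vehicle) FPKM at 1% pO2, against 7.31 (PT2385) and 9.99 (vehicle) FPKM at 20% pO2. The growth factor gene *Igf2* had 4.92 (PT2385) and 5.16 (vehicle) FPKM at 1% pO2, against 17.9 (PT2385) and 38.5 (vehicle) FPKM at 20% pO2. Its imprinted neighbour, the noncoding RNA *H19*, had 128 (PT2385) and 188 (vehicle) FPKM at 1% pO2, against 459 (PT2385) and 819 (vehicle) FPKM at 20% pO2.

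Stress genes were higher in large part. Of 31 genes of the ATF4 and amino acid response, 28 were higher in both pairs and 14 past 2-fold, with a median of 0.63 (PT2385) and 0.76 (vehicle). *Ddit3*, the stress factor CHOP, had 53 FPKM (PT2385) and 55.4 FPKM (vehicle) at 1% pO2, against 6.17 (PT2385) and 7.36 (vehicle) FPKM at 20% pO2. *Trib3*, a pseudokinase that restrains ATF4, had 48.7 (PT2385) and 50.3 (vehicle) FPKM at 1% pO2, against 2.78 (PT2385) and 2.71 (vehicle) FPKM at 20% pO2, and *Gdf15*, a stress cytokine, 33.4 (PT2385) and 31.3 (vehicle) FPKM at 1% pO2, against 2.64 (PT2385) and 2.90 (vehicle) FPKM at 20% pO2. *Asns*, asparagine synthetase, had 122 (PT2385) and 130.3 (vehicle) FPKM at 1% pO2, against 78.4 (PT2385) and 76.7 (vehicle) FPKM at 20% pO2, and *Atf4* itself had 362 (PT2385) and 361 (vehicle) FPKM at 1% pO2, against 280.1 (PT2385) and 266 (vehicle) FPKM at 20% pO2, both short of 2-fold.

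The p53 pathway list had 25 of 31 genes higher in both pairs and 13 past 2-fold (medians 0.77 in the PT2385 pair and 0.60 in the vehicle pair). *Pmaip1*, the death-promoting protein NOXA, had 40.5 FPKM (PT2385) and 37.6 FPKM (vehicle) at 1% pO2, against 3.04 (PT2385) and 3.45 (vehicle) FPKM at 20% pO2. *Cdkn1a*, the cell cycle inhibitor p21, had 230.3 (PT2385) and 217 (vehicle) FPKM at 1% pO2, against 74.4 (PT2385) and 81.0 (vehicle) FPKM at 20% pO2, and *Gadd45a* differed by 2.07 (PT2385) and 1.95 (vehicle). *Trp53* had 200.4 (PT2385) and 190.2 (vehicle) FPKM at 1% pO2, against 244 (PT2385) and 228 (vehicle) FPKM at 20% pO2. *Ddit4*, the mTORC1 inhibitor REDD1, had 186 (PT2385) and 177 (vehicle) FPKM at 1% pO2, against 10.9 (PT2385) and 9.14 (vehicle) FPKM at 20% pO2. Of 29 mTORC1 regulators 13 were higher (44.8%) and 11 lower (37.9%) in both pairs, near the shares of all genes, and 3 were higher by 2-fold (10.3%, beside 5.26%).

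Chaperones of the endoplasmic reticulum did not move as a list. Of 28, 13 were higher (46.4%, beside 42.5% of all genes) and 11 lower in both pairs (39.3%, beside 40.9%), and the chaperone *Hspa5* (BiP) had 424 FPKM (PT2385) and 428 FPKM (vehicle) at 1% pO2, against 434 (PT2385) and 415 (vehicle) FPKM at 20% pO2. The 3 past 2-fold (10.7%, beside 5.26% of all genes) were *Ero1l*, the oxidase that forms disulphide bonds, by 3.18 (PT2385) and 3.10 (vehicle), *Herpud1* by 1.42 (PT2385) and 1.36 (vehicle), and *Dnajb9* by 1.36 (PT2385) and 1.21 (vehicle).

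For several stress and p53 genes the value at 4% pO2 lay near that at 20% pO2. At 4% pO2, *Ddit3* had 11.1 FPKM (PT2385) and 11.7 FPKM (vehicle), *Gdf15* 5.80 (PT2385) and 4.39 (vehicle) FPKM, *Trib3* 5.80 (PT2385) and 6.97 (vehicle) FPKM and *Pmaip1* 4.33 (PT2385) and 5.83 (vehicle) FPKM, all nearer to 20% than to 1% pO2. Between 1% and 4% pO2, which share no library, 29 of 31 genes of the ATF4 list were higher at 1% in both treatments, with a median difference of 0.95 (PT2385) and 0.94 (vehicle), and 28 of 31 p53 pathway genes were, with 1.11 (PT2385) and 0.88 (vehicle). Over all genes these medians were -0.01 (PT2385) and 0.00 (vehicle). *Slc16a3* and *Pdk1*, by contrast, had 361 and 89.8 FPKM with PT2385 and 354 and 101 FPKM with vehicle at 4% pO2. Of the 630 higher genes 370 (58.7%), and of the 156 lower genes 94 (60.3%), also passed 2-fold at 4% pO2 in both treatments, a count that uses the same normoxic libraries.

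**Figure D4:**
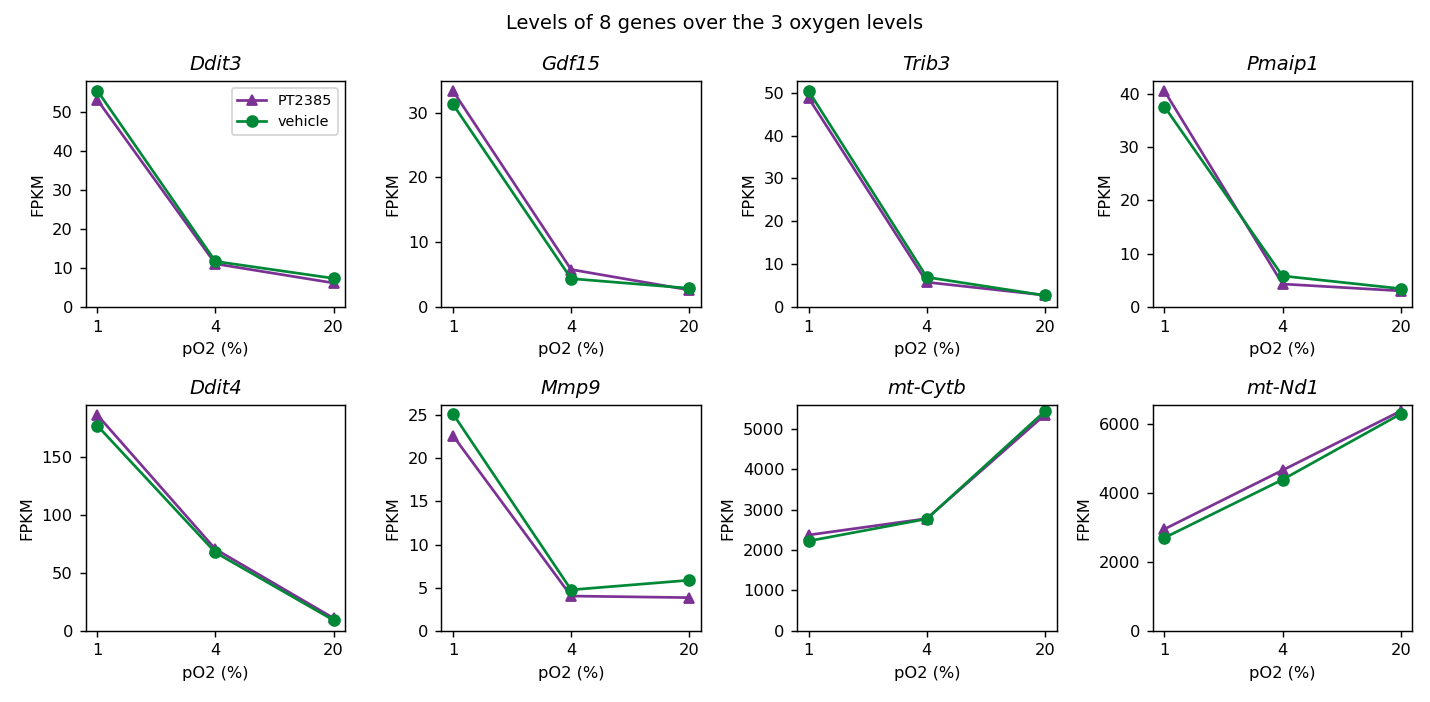
FPKM of 8 genes at 1%, 4% and 20% pO2 (x axis, low to high, evenly spaced), with triangles for PT2385 and circles for vehicle and each y axis starting at 0. *Ddit3*, *Gdf15*, *Trib3*, *Pmaip1* and *Mmp9* are high at 1% pO2 alone, *Ddit4* is between its extremes at 4% pO2, and *mt-Cytb* and *mt-Nd1* are lowest at 1% pO2.

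Lipid genes differed in degree from one path to the next. Of 29 cholesterol synthesis genes 27 were higher in both pairs, 5 of them past 2-fold, with a median of 0.80 (PT2385) and 0.65 (vehicle). *Insig1*, a sterol sensor, had 59.0 (PT2385) and 50.5 (vehicle) FPKM at 1% pO2, against 25.3 (PT2385) and 21.8 (vehicle) FPKM at 20% pO2, and *Idi1*, an isomerase of the pathway, 31.1 (PT2385) and 26.3 (vehicle) FPKM at 1% pO2, against 7.78 (PT2385) and 10 (vehicle) FPKM at 20% pO2. At 4% pO2 both were higher still, with 83.6 (PT2385) and 87.2 (vehicle) FPKM for *Insig1* and 83.8 (PT2385) and 95.5 (vehicle) FPKM for *Idi1*, and 27 of the 29 genes were lower at 1% than at 4% pO2 in both treatments. *Hilpda*, an inhibitor of lipolysis on lipid droplets, had 69.6 FPKM (PT2385) and 65.3 FPKM (vehicle) at 1% pO2, against 12.2 (PT2385) and 9.86 (vehicle) FPKM at 20% pO2, and the droplet coat gene *Plin2* differed by 1.13 (PT2385) and 1.20 (vehicle).

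Genes of growth and division mostly differed by less than 2-fold. Of 42 mitosis genes 31 were lower in both pairs, with medians of -0.23 (PT2385) and -0.28 (vehicle), and 0 passed 2-fold. *Ube2c*, the ubiquitin carrier of the anaphase complex, had 209 FPKM (PT2385) and 196 FPKM (vehicle) at 1% pO2, against 342 (PT2385) and 329 (vehicle) FPKM at 20% pO2, while the proliferation marker *Mki67* had 57.3 (PT2385) and 64.7 (vehicle) FPKM at 1% pO2, against 55.7 (PT2385) and 66.0 (vehicle) FPKM at 20% pO2. DNA replication genes were divided, with 13 of 41 higher and 16 lower. Of 50 genes of the MYC network and ribosome biogenesis 39 were lower in both pairs, with medians of -0.36 (PT2385) and -0.30 (vehicle), although *Myc* had 125 (PT2385) and 132 (vehicle) FPKM at 1% pO2, against 78.5 (PT2385) and 66.9 (vehicle) FPKM at 20% pO2. *Mxi1*, which competes with MYC for its partner MAX, was past 2-fold, by 2.25 (PT2385) and 2.27 (vehicle). The 81 cytosolic ribosomal protein genes, many with pseudogenes, lay at medians of -0.12 (PT2385) and -0.08 (vehicle), and 62 of them were lower in both pairs. *Ccnd3*, a G1 cyclin of muscle, fell to 118 (PT2385) and 109.9 (vehicle) FPKM at 1% pO2, against 239 (PT2385) and 257 (vehicle) FPKM at 20% pO2.

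Immediate early and inflammatory genes were higher in part. Of 24 immediate early factors 10 passed 2-fold, all higher, among them *Klf2*, by 2.58 (PT2385) and 2.75 (vehicle), and *Jun*, by 1.83 (PT2385) and 1.78 (vehicle), while *Fos* differed by -0.18 (PT2385) and -0.38 (vehicle) and *Egr1* by -0.46 (PT2385) and -0.22 (vehicle). Of 29 NF-kB and inflammatory genes 7 were higher and 2 lower by 2-fold. *Traf1*, an adaptor of TNF receptors, had 10.2 FPKM (PT2385) and 11.1 FPKM (vehicle) at 1% pO2, against 0.196 (PT2385) and 0.255 (vehicle) FPKM at 20% pO2. *Il11*, an IL-6 family cytokine, had 143 (PT2385) and 97.7 (vehicle) FPKM at 1% pO2, against 37.9 (PT2385) and 18.2 (vehicle) FPKM at 20% pO2. The chemokine gene *Ccl2* was lower, with 9.46 (PT2385) and 9.70 (vehicle) FPKM at 1% pO2, against 28.4 (PT2385) and 23.7 (vehicle) FPKM at 20% pO2, as was *Vcam1*.

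Smaller sets of signalling and regulatory genes held single large changes. Of 26 histone demethylase and TET genes 3 passed 2-fold, *Kdm3a*, *Kdm4b* and the RNA demethylase gene *Alkbh5*, with differences of 2.18, 1.05 and 1.10 in the PT2385 pair and 2.00, 1.36 and 1.06 in the vehicle pair. Of 17 clock genes 4 did, led by *Bhlhe40* and the clock repressor *Ciart*, by 3.22 (PT2385) and 3.72 (vehicle). Among 31 Notch and Wnt genes 5 were higher and 5 lower by 2-fold. The ligand *Wnt7b* had 29.8 FPKM (PT2385) and 29.6 FPKM (vehicle) at 1% pO2, against 1.43 (PT2385) and 1.22 (vehicle) FPKM at 20% pO2, and the Notch ligand *Jag1* had 15.2 (PT2385) and 16.8 (vehicle) FPKM at 1% pO2, against 3.49 (PT2385) and 3.62 (vehicle) FPKM at 20% pO2. The Notch feedback gene *Nrarp* and the Notch modifier *Lfng* were lower, by -1.47 and -1.03 with PT2385 and by -1.73 and -1.39 with vehicle.

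Of 31 TGF-beta and BMP genes 5 were higher and 3 lower by 2-fold. The activin subunit gene *Inhba* and the BMP antagonist *Grem1* differed by 1.69 and 1.52 in the PT2385 pair and by 1.46 and 2.09 in the vehicle pair, while another BMP antagonist, *Nog*, differed by -1.62 (PT2385) and -1.39 (vehicle). Among 17 IGF system genes 4 were higher by 2-fold, *Igfbp2*, *Igfbp3*, *Igfbp5* and the stanniocalcin gene *Stc2*, and 2 were lower, *Igf2* and *H19*. Of 5 genes of the TAM receptors and their ligands, *Gas6* was the one past 2-fold, and its receptor gene *Axl* had 163 (PT2385) and 169 (vehicle) FPKM at 1% pO2, against 179 (PT2385) and 169 (vehicle) FPKM at 20% pO2. Among 22 G1 cyclin, CDK and inhibitor genes 2 were higher by 2-fold (9.09%, beside 5.26%), *Cdkn1a* and *Cdkn1c*, and 2 lower (9.09%, beside 1.3%), *Ccnd3* and *Cdkn2a*.

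In the remaining lists the counts past 2-fold were small, and some of their shares lay above those of all genes. Of 17 interferon-stimulated genes *Ifitm1* and *Ifitm3* were higher (11.8%, beside 5.26% of all genes). *Bst2*, which tethers viruses to the cell surface, was lower (5.88%, beside 1.3%). *Ifitm1*, which blocks viral entry, had 8.79 (PT2385) and 7.33 (vehicle) FPKM at 1% pO2, against 0.113 (PT2385) and 0.234 (vehicle) FPKM at 20% pO2. At 4% pO2 *Ifitm1* was far higher, with 75.4 (PT2385) and 76.7 (vehicle) FPKM. Of 14 genes of MHC class I and antigen processing 2 were higher (14.3%, beside 5.26%), the class I heavy chains *H2-K1* and *H2-D1*. Their near-identical relatives make these values uncertain. In fatty acid metabolism 5 of 40 were higher (12.5%, beside 5.26%), *Hilpda* and *Plin2* among them. Single genes passed among 21 of iron and heme (the ferritin chain *Fth1*), 36 of the NRF2 and glutathione system (the cystine carrier *Slc7a11*) and 18 of myoblast fusion and membrane repair (the adhesion gene *Jam2*), all higher. The shares of these lists with a single gene, 4.76%, 2.78% and 5.56%, lie near or under the 5.26% of all genes that were higher. They are no result about those lists.

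*Myod1*, a gene of the labelled cell type, was at 571 FPKM or more in the 4 libraries. Of the 12 myoblast markers 9 were kept, and 8 of these were lower in both pairs, with medians of -0.78 (PT2385) and -0.69 (vehicle). Several defining markers of other cells were near 0 while other markers were not. The summed level of the 12 myoblast markers was 975.1 FPKM (PT2385) and 942.6 FPKM (vehicle) at 1% pO2, against 1507 (PT2385) and 1499 (vehicle) FPKM at 20% pO2. The leukocyte gene *Ptprc* was at or below 0.00994 FPKM, *Tyrobp* was listed at 0 in all 4 libraries, and the 20 leukocyte markers summed to 23.9 (PT2385) and 22.6 (vehicle) FPKM at 1% pO2, against 6.485 (PT2385) and 6.25 (vehicle) FPKM at 20% pO2. Of these, 3 were kept and all 3 were higher in both pairs, 2 of them by 2-fold. *Cd68*, which other cells with lysosomes also express, held 14.6 (PT2385) and 13.5 (vehicle) FPKM at 1% pO2, against 2.78 (PT2385) and 2.08 (vehicle) FPKM at 20% pO2. *Laptm5* had 4.21 (PT2385) and 3.40 (vehicle) FPKM at 1% pO2, against 0.465 (PT2385) and 0.535 (vehicle) FPKM at 20% pO2. At 4% pO2 *Laptm5* had 91.5 (PT2385) and 80.7 (vehicle) FPKM. The 14 fibro-adipogenic markers summed to 126.2 (PT2385) and 135.2 (vehicle) FPKM at 1% pO2, against 52.2 (PT2385) and 48.2 (vehicle) FPKM at 20% pO2. Of these, 5 were kept and all 5 were higher, 3 of them by 2-fold, with *Smoc2* at 94.9 (PT2385) and 105 (vehicle) FPKM at 1% pO2, against 41.9 (PT2385) and 39.6 (vehicle) FPKM at 20% pO2, but *Pdgfra* stayed at or below 0.297 FPKM and *Dpt* at or below 0.0285 FPKM. The 12 adipocyte markers summed to 43.6 FPKM with PT2385 and 13.3 FPKM with vehicle at 1% pO2, against 11.2 (PT2385) and 13.0 (vehicle) FPKM at 20% pO2, so the 1% library with PT2385 stood apart from the other 3. *Adipoq*, for the fat hormone adiponectin, had 1.47 FPKM with PT2385 and 0.0395 FPKM with vehicle at 1% pO2, against 0.039 (PT2385) and 0 (vehicle) FPKM at 20% pO2. Of the 6 adipocyte markers kept, *Car3* was higher and *Cebpa* lower by 2-fold in both pairs. The fatty acid carrier gene *Fabp4* had 17.3 FPKM with PT2385 and 1.05 FPKM with vehicle at 1% pO2, against 0.664 (PT2385) and 0.303 (vehicle) FPKM at 20% pO2. The 13 smooth muscle and pericyte markers summed to 200.7 (PT2385) and 212.3 (vehicle) FPKM at 1% pO2, against 273.7 (PT2385) and 341.2 (vehicle) FPKM at 20% pO2, with *Myh11*, the myosin of mature smooth muscle, at or below 0.0142 FPKM. Of this list 7 were kept, 3 of them higher and 4 lower in both pairs. *Acta2*, which myoblasts also use, had 78.3 (PT2385) and 82.5 (vehicle) FPKM at 1% pO2, against 169 (PT2385) and 239.8 (vehicle) FPKM at 20% pO2. *Rgs5* went the other way, with 38.3 (PT2385) and 41.4 (vehicle) FPKM at 1% pO2, against 20.7 (PT2385) and 22.5 (vehicle) FPKM at 20% pO2. The 15 Schwann cell and tendon markers summed to 127.8 (PT2385) and 129.3 (vehicle) FPKM at 1% pO2, against 76.8 (PT2385) and 83.5 (vehicle) FPKM at 20% pO2. Of these, 4 were kept and 2 were higher in both pairs, 1 of them by 2-fold. That gene, *Sox9*, a factor of cartilage and tendon precursors, had 52.9 (PT2385) and 52.3 (vehicle) FPKM at 1% pO2, against 11.3 (PT2385) and 9.85 (vehicle) FPKM at 20% pO2. The tendon marker *Scx* had 15.1 (PT2385) and 14.0 (vehicle) FPKM at 1% pO2, against 12.65 (PT2385) and 14.3 (vehicle) FPKM at 20% pO2. The tendon marker *Tnmd* was at or below 0.1485 FPKM and the Schwann cell factor gene *Sox10* at or below 0.0174 FPKM. The 12 endothelial markers summed to 4.62 (PT2385) and 4.92 (vehicle) FPKM at 1% pO2, against 8.84 (PT2385) and 10.3 (vehicle) FPKM at 20% pO2. The part of other cells in these results was not tested.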

How the data were processed

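The RNA-seq libraries of the 6 conditions were deposited as 1 table of 54834 genes. Per the submitters' notes reads were processed with HISAT2 2.1.0, SAMtools 1.3.1, Cufflinks and Cuffdiff 2.2.1, whereas the supplementary methods name TopHat2 and GRCm38 gene models. The deposited values were taken as FPKM from the authors' Cuffdiff step and from their range, since the header names no unit. Gene types came from GENCODE M21, which matched 54805 genes (99.95%).

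Genes with a mean of at least 1 FPKM over the 6 libraries were kept, and 1 was added before the log2. A gene was called where the difference reached 1 in both pairs. The text names the 15 highest and 15 lowest protein-coding genes by the smaller difference of the pairs, with a mean of at least 5 FPKM and without predicted genes, histone genes and genes listed at 0 beside 5 or more, the 8 such genes with the widest gap between pairs, core genes of each list, and up to 5 list members in each direction. The members and lists were chosen with earlier results of these data known. Fragments per library were estimated from the steps between low values, of which 90.5% to 91.7% lay within 0.1 of a whole fragment.

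Alternatives were another pseudocount, filter, threshold and scaling, each pair alone, and a limma fit over the 6 libraries with pO2 and treatment as terms, tested on simulated data. A fit without genes listed at 0 was added after the data were seen. Python 3.11.15, numpy 2.4.6, scipy 1.17.1, pandas 2.3.3, matplotlib 3.10.9, R 4.3.3 and limma 3.58.1 were used.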

Additional observations from a re-analysis of the deposited data

How the results depend on the processing

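The main call gave 630 higher and 156 lower genes. A mean of at least 5 FPKM left 420 higher and 95 lower, and a 1.5-fold threshold gave 1335 higher and 538 lower. The vehicle pair alone gave 235 lower genes and the PT2385 pair alone 246. In limma, fitted to all 6 libraries with pO2 and treatment as terms and 2 residual degrees of freedom, 2989 genes were higher and 2626 lower at an adjusted p under 0.05, including 785 of the 786 called genes, but its residual is how the treatment difference varies over 1%, 4% and 20% pO2 and not the spread between cultures. A pseudocount of 0.1, no filter, median-ratio or equal-sum scaling, protein-coding genes alone and leaving out genes listed at 0 each gave between 577 and 907 higher and between 135 and 219 lower genes. The median of the smooth muscle and pericyte markers was -0.46 with the filter and 0.0178 without it. Medians near 0 changed sign under some setting for oxygen sensing, pyruvate and lactate, glycogen, collagen chains, myogenic regulators, contractile genes, DNA replication, metallothioneins, TGF-beta and BMP, and Notch and Wnt. No paired analysis was possible because there is 1 replicate number per condition and so none to block on. Libraries were matched by treatment instead, in the main call and as a term in limma. With 1 pool per condition, differences between cultures cannot be measured, and at this depth values under about 1 FPKM rest on few fragments.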

Other observations

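Genes outside the lists, chosen after their values were seen, included further members of the 630 higher genes. *Txnip*, the glucose-responsive inhibitor of thioredoxin, had 133 (PT2385) and 124 (vehicle) FPKM at 1% pO2, against 6.31 (PT2385) and 7.23 (vehicle) FPKM at 20% pO2. At 4% pO2 it had 20.5 (PT2385) and 19 (vehicle) FPKM. The mitochondrial protein genes *Higd1a* and *Fam162a* differed by 2.37 and 2.37 in the PT2385 pair and by 2.38 and 2.52 in the vehicle pair. *Nefl*, a neurofilament chain best known from neurons, was among them, at 14.3 (PT2385) and 12.0 (vehicle) FPKM at 1% pO2, against 0.423 (PT2385) and 0.164 (vehicle) FPKM at 20% pO2.

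Further genes chosen in the same way were *Dlk1*, *Mest* and *Rxfp1*. *Dlk1*, a membrane ligand related to Notch ligands, had 60.7 (PT2385) and 61.3 (vehicle) FPKM at 1% pO2, against 7.62 (PT2385) and 7.60 (vehicle) FPKM at 20% pO2. *Mest* had 79.1 (PT2385) and 76.3 (vehicle) FPKM at 1% pO2, against 278 (PT2385) and 390.1 (vehicle) FPKM at 20% pO2. *Rxfp1*, the relaxin receptor, was nearly absent at 1% pO2, with 0.128 (PT2385) and 0.077 (vehicle) FPKM, against 9.13 (PT2385) and 9.6 (vehicle) FPKM at 20% pO2.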
